A study of Mus musculus with 6 samples.

Results

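A set of 10 genes whose products mark the surface or the endosomes of monocytes and macrophages was followed in AE9a leukemia cells with and without Ddit4. The genes were Cd14, Adgre1, Ly6c2, Cx3cr1, Ccr2, Cd68, Mrc1, Msr1, Fcgr1 and Mertk. They were chosen by name, with earlier results of these data known. All 10 of the 10 were found among the 55421 genes of the deposited table and were tested. AE9a is a shortened AML1-ETO fusion protein that drives acute myeloid leukemia in mice. In the study, a retrovirus carrying AE9a and GFP was brought into c-Kit+ stem and progenitor cells of young adult C57BL/6 donors, and the cells were injected into irradiated C57BL/6 recipients. Leukemia cells from the bone marrow of recipients gave 3 libraries from Ddit4+/+ donors (AE9a-Ddit4+/+, called wild-type libraries) and 3 libraries from Ddit4-/- donors (AE9a-Ddit4-/-, called knockout libraries). Both groups carried the AE9a virus, and Ddit4, a stress-induced inhibitor of mTOR signaling, was the gene that set them apart by label. The labels add that leukemia cells were kept in IMDM medium with serum, and they give neither age nor sex.

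Some features of the model bear on genes of this kind. Irradiated recipients keep blood and tissue cells of their own, including macrophages, and no sort of the leukemia cells before RNA extraction is stated. The group size given for the transplanted mice equals the number of libraries, which points to 1 mouse per library. Whether those mice carried separate primary leukemias is not given in the sources used here, so n counts libraries and p-values measure the spread between these libraries. In the paper's primary transplants, fewer Ddit4-/- recipients developed leukemia than there are knockout libraries here. Some knockout libraries may therefore share a primary leukemia and not be independent. The extent of the Ddit4 deletion is not given in the sources used here. Because the samples were bulk RNA, a change in the number of monocytes or macrophages and a change in RNA per cell cannot be told apart.

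Monocytes leave the bone marrow as classical cells, which carry Ly6C and the chemokine receptor CCR2 in mice, and some convert into patrolling cells that carry CX3CR1. Macrophages in tissues take up dying cells, lipoproteins and glycoproteins through scavenger receptors, C-type lectins and receptor kinases, and bone marrow macrophages are known for clearing old red cells and expelled erythroblast nuclei. CD14 and the high-affinity Fc receptor FcγRI sense bacterial products and antibody, and F4/80, the product of Adgre1, is a classical marker of mouse macrophages.

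The libraries held 62141558 to 72717681 counts. Levels are given as CPM, the counts of a gene for every 1000000 counts of its library after TMM scaling, and changes as log2 fold changes, AE9a-Ddit4-/- over AE9a-Ddit4+/+, with their standard errors (SE). Tests were edgeR quasi-likelihood tests with Benjamini-Hochberg adjustment over 18375 genes, and a gene past the threshold had an adjusted p below 0.05. Ddit4 itself was at 228, 161 and 342 CPM in the wild-type libraries and at 84.9, 77.7 and 85.9 CPM in the knockout libraries (log2 fold change -1.56, SE 0.28, adjusted p = 0.00635), so its RNA was lower in the knockout libraries and still counted. By western blot, the paper reports that knockout leukemia cells had no DDIT4 protein. The groups also differed in the mitochondrial share of counts, at 6.17% ± 1.52 against 13.3% ± 2.75 (SD, n = 3 each), and in sex-linked transcripts, with Ddx3y at 0.0589 to 0.0774 CPM against 88.2 to 125 CPM. Xist was at 566 to 1032 CPM in the wild-type libraries and at 20.3 to 129 CPM in the knockout libraries, so it was still counted there. Where the paper states the sex of recipients, they were female. The source of the Xist RNA in the knockout libraries was not tested. Genotype and the sex of the cells cannot be told apart here.

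Mrc1, Mertk and Msr1, whose products take up glycoproteins, dying cells and modified lipoproteins, rose in the knockout libraries, whereas Cd14, Ly6c2, Ccr2, Cx3cr1, Fcgr1, Adgre1 and Cd68 did not pass the threshold. Of the 10 genes, 3 were higher and 0 were lower. Over all genes tested, 19.4% were higher and 10.7% were lower, or 30.1% in either direction, so 3 of 10 is a share near that of all genes and says nothing particular about the group as a whole. Lower genes numbered 0 also at an unadjusted p below 0.05 and by DESeq2, and higher genes numbered 4 by both of these counts. The groups did not overlap for 4 genes, Mrc1, Mertk, Msr1 and Cd68, all with the knockout higher, against 27.9% of all genes (50.1% in either direction, 22.2% with the knockout lower). The median log2 fold change of the 10 genes was 0.99, beside 0.04 over all genes tested.

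**Figure D1:**
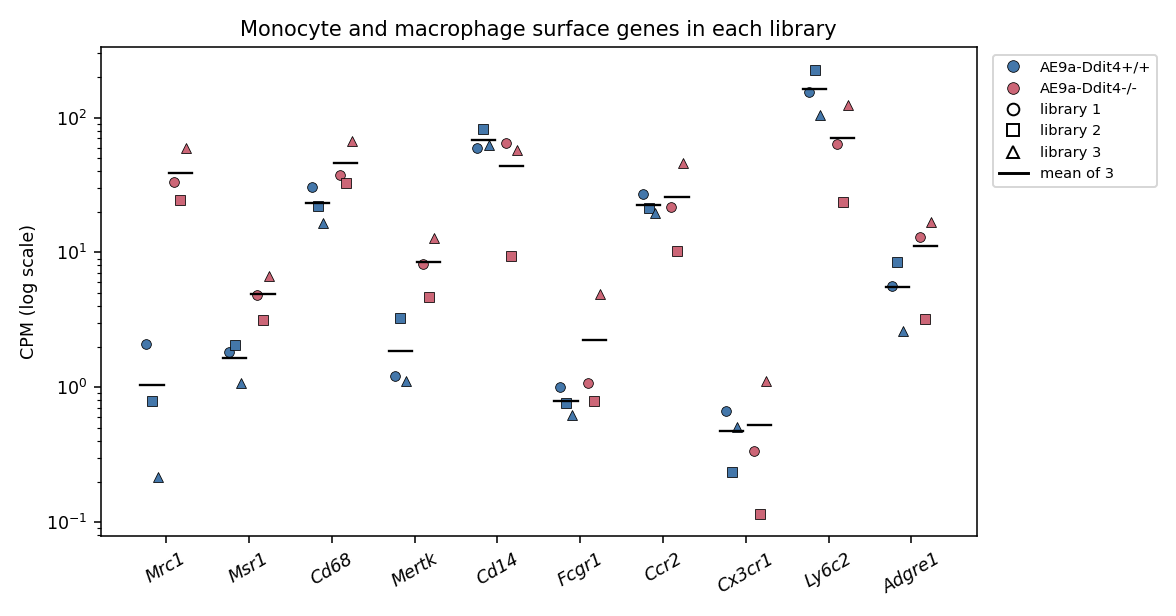
CPM on a log scale of each of the 10 genes in each library, with AE9a-Ddit4+/+ in blue and AE9a-Ddit4-/- in red, the library number as the marker shape and the mean of 3 as a bar. Mrc1 lies between 0.217 and 2.09 CPM in blue and between 24.5 and 59.6 CPM in red, and the red square, knockout library 2, is the lowest red point for all 10 genes.

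Mrc1 showed the largest change of the 10 genes. It encodes the mannose receptor CD206, an endocytic lectin of tissue macrophages that takes up mannose-rich glycoproteins (ENSMUSG00000026712, GRCm38, chr2:14229392-14332057, plus strand). It was at 2.09, 0.796 and 0.217 CPM in the wild-type libraries and at 33.3, 24.5 and 59.6 CPM in the knockout libraries. The knockout libraries were thus all far above the wild-type libraries, whose own values spread over nearly an order of magnitude and rested on as few as 14 counts. Means were 1.03 ± 0.959 and 39.1 ± 18.3 CPM (SD, n = 3 each), a 37.8-fold difference (log2 fold change 5.24, SE 0.83, adjusted p = 0.00386). Mrc1 stayed past the threshold in all 14 other fits of the counts that were run, with log2 fold changes from 4.76 to 6.26.

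Mertk, which also lies on chromosome 2, encodes a receptor tyrosine kinase that lets macrophages engulf apoptotic cells (ENSMUSG00000014361, chr2:128698956-128802894, plus strand). It was at 1.22, 3.26 and 1.11 CPM in the wild-type libraries and at 8.14, 4.66 and 12.7 CPM in the knockout libraries. The groups did not overlap, although wild-type library 2 and knockout library 2 came close to each other. The means of 1.86 ± 1.21 and 8.49 ± 4.02 CPM (SD, n = 3 each) gave a 4.55-fold difference (log2 fold change 2.19, SE 0.59, adjusted p = 0.0288). The call was lost on leaving out wild-type library 1 (adjusted p = 0.0890) or 3 (0.0900), or knockout library 1 (0.0711) or 3 (0.0948), all by edgeR.

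The promoters of Mrc1 and Mertk are shown because these genes had the largest changes of the 10 and because AE9a holds the DNA-binding part of RUNX1, while PU.1 is a main transcription factor of macrophages. Each sequence is the 250 bases before the RefSeq transcription start, 5′ to 3′ on the gene's strand, from build GRCm38.p6, and capitals mark matches to the PU.1 core GAGGAA on either strand, which reads TTCCTC when the match is on the opposite strand.
Mrc1 promoter, chr2:14229164-14229413, plus strand: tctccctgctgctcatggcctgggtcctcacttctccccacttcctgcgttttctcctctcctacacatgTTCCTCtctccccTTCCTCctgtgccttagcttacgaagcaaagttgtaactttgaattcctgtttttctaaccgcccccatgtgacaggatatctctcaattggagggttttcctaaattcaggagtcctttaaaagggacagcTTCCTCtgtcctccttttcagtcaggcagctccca
Mertk promoter, chr2:128698665-128698914, plus strand: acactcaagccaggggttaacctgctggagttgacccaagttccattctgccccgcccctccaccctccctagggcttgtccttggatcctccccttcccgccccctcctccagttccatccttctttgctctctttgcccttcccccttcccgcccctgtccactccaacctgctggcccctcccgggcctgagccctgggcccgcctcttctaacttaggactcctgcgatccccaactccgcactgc
The Mrc1 window held 3 matches to the PU.1 core, which began 180, 167 and 35 bases before the start, all on the minus strand, and the Mertk window held none. Neither window held the RUNX motif TGTGGT or the TATA box letters TATAAA. Windows were read for 7 of the 10 genes, and among these Mrc1, Fcgr1, Cd68 and Ly6c2 held a PU.1 core and Cx3cr1 and Ly6c2 a RUNX motif. Of 32851 windows of the same length, 23.3% held the PU.1 core, 14.0% the RUNX motif and 12.4% the TATA box letters. The RefSeq starts of Mertk, of Cd68 and of a Ly6c2 window did not match a GENCODE transcript, so these windows may lie beside another start.

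Msr1, the third gene that rose, encodes the class A scavenger receptor CD204, which binds modified lipoproteins (ENSMUSG00000025044, chr8:39581685-39642673, minus strand). It was at 1.84, 2.06 and 1.07 CPM in the wild-type libraries and at 4.82, 3.16 and 6.73 CPM in the knockout libraries. Each knockout library was above each wild-type library, by a narrow gap for knockout library 2. Means were 1.66 ± 0.522 and 4.90 ± 1.79 CPM (SD, n = 3 each), a 2.96-fold difference (log2 fold change 1.57, SE 0.47, adjusted p = 0.0393). The call was lost without wild-type library 1 (adjusted p = 0.0857) or 3 (0.115), without knockout library 1 (0.0928) or 3 (0.133), and without a filter on low counts (0.0540), all by edgeR.

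Cd68 encodes macrosialin, a sialomucin of endosomes and lysosomes that reaches the surface of macrophages in small amounts (ENSMUSG00000018774, chr11:69664213-69666153, minus strand). It was at 30.8, 22.0 and 16.6 CPM in the wild-type libraries and at 37.8, 32.6 and 67.2 CPM in the knockout libraries. The groups did not overlap, yet the gap between wild-type library 1 and knockout library 2 was small. Means were 23.1 ± 7.17 and 45.9 ± 18.6 CPM (SD, n = 3 each), and the log2 fold change of 0.99 (SE 0.35) missed the threshold with edgeR (adjusted p = 0.0717) and passed it with DESeq2 (adjusted p = 0.0318).

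Mrc1 and Cd68 kept a nearly fixed ratio among the knockout libraries. Per 100 Cd68 counts there were 88.0, 75.2 and 88.7 Mrc1 counts in the knockout libraries and 6.79, 3.62 and 1.31 in the wild-type libraries. Mertk per 100 Cd68 counts was 21.5, 14.3 and 18.9 in the knockout libraries and 3.96, 14.8 and 6.73 in the wild-type libraries, so that these ranges met. Msr1 per 100 Cd68 counts was 12.7, 9.69 and 10.0 against 5.97, 9.39 and 6.45. These ratios were chosen after the values were seen and carry no test.

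Cd14 and Fcgr1, the genes of this set whose products sense bacterial products and antibody, did not pass the threshold. Fcgr3 and Fcgr2b, Fc receptor genes outside the set, passed it as higher and are given below. Cd14 encodes the coreceptor that hands lipopolysaccharide to TLR4 (ENSMUSG00000051439). It was at 59.2, 82.9 and 62.1 CPM in the wild-type libraries and at 64.4, 9.47 and 57.6 CPM in the knockout libraries. Knockout libraries 1 and 3 lay within or next to the wild-type range and knockout library 2 lay far below it. The log2 fold change was -0.63 (SE 0.60, adjusted p = 0.465 by edgeR), and -0.20 without knockout library 2.

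Fcgr1, which encodes FcγRI (ENSMUSG00000015947, chr3:96282909-96293969, minus strand), was at 0.997, 0.766 and 0.619 CPM in the wild-type libraries and at 1.08, 0.790 and 4.89 CPM in the knockout libraries. Only knockout library 3 stood clearly above the wild-type range. The log2 fold change of 1.50 (SE 0.75, adjusted p = 0.172 by edgeR) fell to 0.19 without that library.

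Ly6c2, Ccr2 and Cx3cr1, the markers of classical and patrolling monocytes in this set, did not pass the test in either direction. Ly6c2 encodes the GPI-anchored Ly6C antigen of classical monocytes (ENSMUSG00000022584, chr15:75108158-75111970, minus strand). It was at 155, 227 and 104 CPM in the wild-type libraries and at 63.2, 23.5 and 124 CPM in the knockout libraries. Knockout libraries 1 and 2 lay below all wild-type libraries and knockout library 3 lay within their range. Means were 162 ± 61.6 and 70.2 ± 50.6 CPM (SD, n = 3 each; log2 fold change -1.21, SE 0.57, adjusted p = 0.148 by edgeR), and without knockout library 3 Ly6c2 passed the threshold (-1.95, adjusted p = 0.0387).

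The Ly6c2 values are uncertain because of its near-identical neighbour Ly6c1. Their longest protein-coding transcripts, of 822 and 844 bases, share 802 identical bases (95% identity), and how shared reads were assigned is not given in the sources used here. Ly6c1 was at 3.86, 4.26 and 2.62 CPM in the wild-type libraries and at 13.5, 2.80 and 6.00 CPM in the knockout libraries (log2 fold change 1.06, SE 0.59, adjusted p = 0.213 by edgeR), so both groups overlapped. Ly6c1 made 2.29 ± 0.361 counts per 100 Ly6c2 counts in the wild-type libraries and 12.7 ± 8.32 in the knockout libraries (SD, n = 3 each).

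Ccr2 encodes the receptor for CCL2 and CCL7 that draws classical monocytes out of the marrow (ENSMUSG00000049103, chr9:124101950-124113557, plus strand). It was at 26.9, 21.3 and 19.5 CPM in the wild-type libraries and at 21.7, 10.3 and 45.8 CPM in the knockout libraries. The knockout values lay on both sides of the wild-type range, and the log2 fold change of 0.20 (SE 0.49, adjusted p = 0.786 by edgeR) turned to -0.55 without knockout library 3.

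Cx3cr1, on the same chromosome, encodes the fractalkine receptor of patrolling monocytes and many tissue macrophages (ENSMUSG00000052336, chr9:119901616-120069879, minus strand). It was nearly silent in both groups, at 0.665, 0.236 and 0.511 CPM in the wild-type libraries and at 0.337, 0.115 and 1.11 CPM in the knockout libraries. These levels stood on 42, 16 and 33 counts and on 21, 7 and 82 counts, and 7 counts is under the 12 taken here as the limit of detection. The log2 fold change was 0.16 (SE 0.87, adjusted p = 0.906 by edgeR) and turned to -1.11 without knockout library 3, so a difference was not detectable at this depth. A gene on the opposite strand, Gm33858, shares 78 exon bases with Cx3cr1, or 1.73% of its exon bases.

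Adgre1, the F4/80 gene (ENSMUSG00000004730, chr17:57358691-57483527, plus strand), was at 5.60, 8.50 and 2.60 CPM in the wild-type libraries and at 13.1, 3.23 and 16.9 CPM in the knockout libraries. Knockout libraries 1 and 3 lay above the wild-type range and knockout library 2 lay within it. Means were 5.57 ± 2.95 and 11.1 ± 7.04 CPM (SD, n = 3 each; log2 fold change 0.99, SE 0.66, adjusted p = 0.298 by edgeR).

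**Figure D2:**
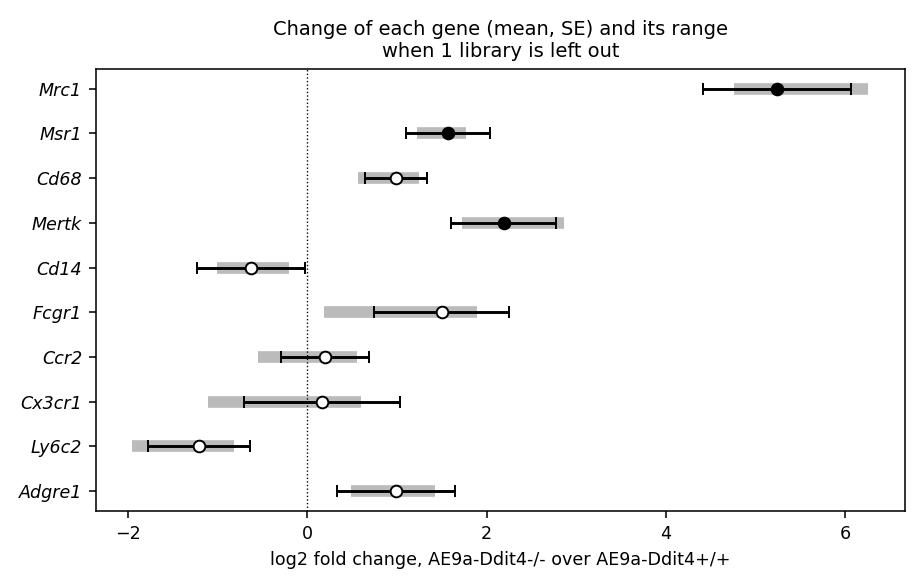
Log2 fold change of each of the 10 genes, AE9a-Ddit4-/- over AE9a-Ddit4+/+, with its SE as a bar, filled points for genes past the threshold and grey bands for the range on leaving out 1 library at a time. The bands of Mrc1, Msr1, Mertk, Cd68, Adgre1 and Fcgr1 lie above 0, those of Cd14 and Ly6c2 below 0, and those of Ccr2 and Cx3cr1 on both sides of it.

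The 3 knockout libraries differed among themselves in one order for most of these genes. Knockout library 2 was the lowest of the knockout libraries for 10 of the 10 genes, against 34.1% of all genes tested, and knockout library 3 was the highest for 9 of the 10, against 32.0% of all genes. The exception was Cd14, which was highest in knockout library 1. The summed level of the 10 genes was 208 to 369 CPM in the wild-type libraries and 112 to 396 CPM in the knockout libraries, with the lowest sum of all 6 in knockout library 2 and the highest in knockout library 3. All values of knockout library 2 for Mrc1, Mertk, Msr1 and Cd68 were nevertheless above those of the wild-type libraries. Without knockout library 2 the count of higher genes stayed at 3, and without knockout library 3 it was 1, Mrc1.

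Levels can be compared between genes only per length, here as CPM per kilobase of the longest protein-coding transcript. In the wild-type libraries Ly6c2 led with 197 ± 75.0, followed by Cd14 with 41.5 ± 7.88, Cd68 with 18.8 ± 5.83, Ccr2 with 3.94 ± 0.671 and Adgre1 with 1.72 ± 0.911 CPM per kilobase (SD, n = 3 for each level). Each of these did not overlap with the next in the order. Msr1 (0.455 ± 0.143), Mertk (0.433 ± 0.281), Fcgr1 (0.307 ± 0.0737), Mrc1 (0.192 ± 0.178) and Cx3cr1 (0.105 ± 0.0484) followed, below all libraries of Adgre1, and neighbours among these overlapped. The wild-type order was thus led by Ly6c2 and Cd14, and which cells held their RNA was not tested.

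In the knockout libraries the order was Ly6c2 (85.4 ± 61.5), Cd68 (37.3 ± 15.1), Cd14 (26.7 ± 18.3), Mrc1 (7.28 ± 3.40), Ccr2 (4.53 ± 3.16), Adgre1 (3.42 ± 2.18), Mertk (1.97 ± 0.934), Msr1 (1.35 ± 0.491), Fcgr1 (0.870 ± 0.885) and Cx3cr1 (0.116 ± 0.117 CPM per kilobase, SD, n = 3 for each level). Neighbours overlapped in this order except the last pair, Fcgr1 and Cx3cr1. Mrc1 moved from rank 9 to rank 4. Ly6c2 counts per 100 Cd68 counts were 503, 1032 and 629 in the wild-type libraries and 167, 72.1 and 185 in the knockout libraries, again a ratio chosen after the values were seen.

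The 9 lists of related genes, 114 genes in all of which 104 were tested, were read in the same fit. Counted once each, 39 were higher and 2 were lower in the knockout libraries, their median being 1.25 on the log2 scale, and 10 of the genes are in more than 1 list. Over all genes tested, 19.4% were higher and 10.7% were lower, and every list count below is to be read beside these shares. Lists were written with earlier results of these data known. Genes of tissue macrophages and of classical monocytes gave different counts. Of 21 tissue macrophage genes tested, 15 were higher and 0 were lower, and the median of their log2 fold changes was 2.99 (2.76 with genes near the limit of detection in the wild-type libraries set to their bound). Of 13 classical monocyte genes, 0 passed the threshold in either direction, with a median of -0.23, and the count was also 0 at an unadjusted p below 0.05 and by DESeq2. Without knockout library 2 it was 1, Vcan, which was then higher. The difference between the lists was not tested.

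**Figure D3:**
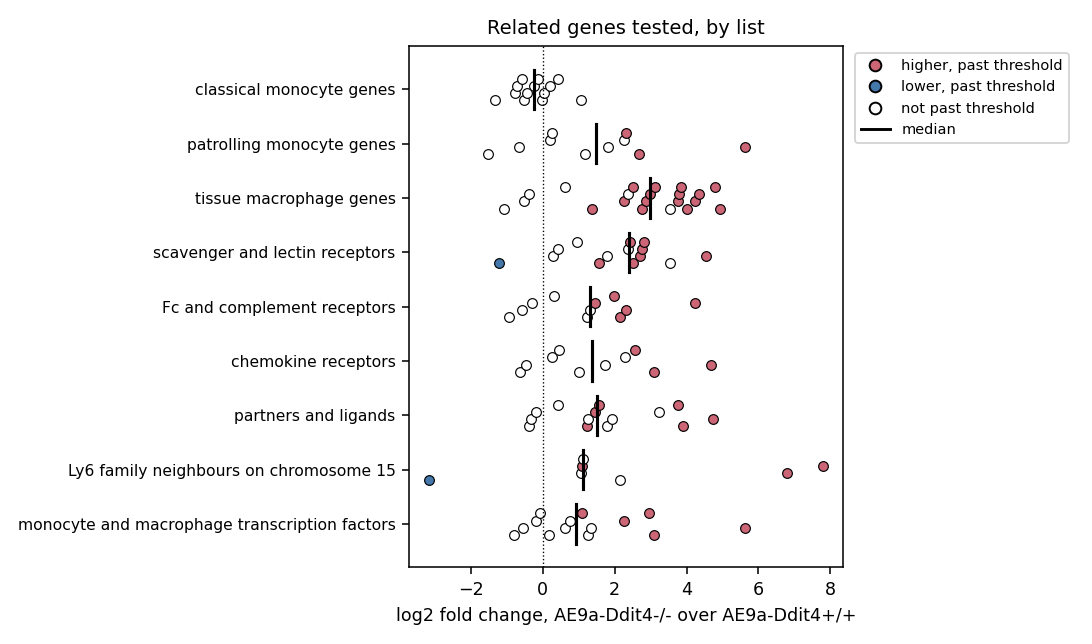
Log2 fold change of each related gene tested, AE9a-Ddit4-/- over AE9a-Ddit4+/+, by list, with red for higher and blue for lower past the threshold, white for the rest and a black bar for the list's median. The medians run from -0.23 for classical monocyte genes to 2.99 for tissue macrophage genes, and the classical monocyte list has no coloured point.

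The tissue macrophage genes with the highest levels among those that rose were Apoe, Vcam1 and Hmox1. Apoe, the lipid carrier apolipoprotein E, was at 32.4, 86.2 and 41.6 CPM against 446, 471 and 263 CPM (log2 fold change 2.88, SE 0.43, adjusted p = 0.00304 by edgeR). Vcam1, an adhesion molecule found on marrow macrophages and stroma, was at 13.6, 10.7 and 5.40 CPM against 73.6, 50.9 and 134 CPM (3.12, SE 0.48, adjusted p = 0.00341 by edgeR). Hmox1, which breaks down heme, was at 17.8, 20.3 and 10.4 CPM against 54.1, 22.8 and 49.5 CPM (1.38, SE 0.40, adjusted p = 0.0351 by edgeR). The groups were apart for all of them, with the narrowest gap for Hmox1 in knockout library 2, and the call of Hmox1 was lost without wild-type library 1 or 3 or knockout library 1 or 3 (adjusted p = 0.0813 to 0.113 by edgeR). Named after their values were seen, the complement genes C1qa, C1qb and C1qc rose by 3.79, 3.85 and 4.78 and Spic, a transcription factor of iron-recycling macrophages, by 4.94 on the log2 scale (adjusted p = 0.00219, 0.00108, 0.00110 and 0.00407 by edgeR). Slc40a1, which encodes the iron exporter ferroportin of the same cells, had a log2 fold change of -0.39 (adjusted p = 0.529), Trem2 of -1.08 (0.376) and Gpnmb of -0.51 (0.683), and these also were named after their values were seen. The count of tissue macrophage genes that rose was 10 on leaving out wild-type library 3, knockout library 1 or knockout library 3, and 10 with at least 10 counts asked of every library.

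Among the knockout libraries, library 2 was the lowest for 11 of 13 classical monocyte genes, as it was for Cd14 and Ccr2. The summed level of the list was 2669 to 5596 CPM in the wild-type libraries and 857 to 3682 CPM in the knockout libraries. That of the tissue macrophage genes was 114 to 220 CPM against 701 to 862 CPM, with no overlap. A large part of each sum came from a single gene. Chil3 gave 2518, 2878 and 1448 CPM of the classical sums in the wild-type libraries and 1255, 202 and 1293 CPM in the knockout libraries. Apoe gave 446, 471 and 263 CPM of the tissue macrophage sums in the knockout libraries, against 32.4, 86.2 and 41.6 CPM. Chil3, Lyz2 and Fn1, the most abundant genes of the classical list and named after their values were seen, had log2 fold changes of -1.32, -0.45 and -0.78 (adjusted p = 0.155, 0.479 and 0.555 by edgeR). Among 10 patrolling monocyte genes, 3 were higher and 0 were lower, with a median of 1.49. They were Nr4a1, Itgax and Pou2f2. Nr4a1, an immediate-early nuclear receptor on which patrolling monocytes depend, was at 43.5, 126 and 45.6 CPM against 5611, 2925 and 2159 CPM (log2 fold change 5.63, SE 0.62, adjusted p = 0.00105 by edgeR), and it is also known as a gene that many stimulated cells switch on. Pou2f2 had a log2 fold change of 2.68 (SE 0.52) and Itgax, the CD11c gene, of 2.33 (SE 0.68), whose call was kept only without wild-type library 1 among the fits with 1 library left out. Without wild-type library 2, 1 patrolling gene, Spn, passed the threshold as lower.

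Partners and ligands of the 10 surface receptors were higher for 6 and lower for 0 of 14 tested, with a median of 1.50, and higher for 3 without wild-type library 1. Csf1r, the receptor for the growth factor on which monocytes and macrophages live, was at 37.1, 55.0 and 21.0 CPM against 45.7, 22.2 and 84.8 CPM (log2 fold change 0.43, SE 0.52, adjusted p = 0.565 by edgeR), and it too was lowest in knockout library 2 and highest in knockout library 3 among the knockout libraries. Axl, a kinase of the same family as Mertk, was at 2.80, 2.21 and 0.449 CPM against 22.6, 15.3 and 35.9 CPM (3.75, SE 0.70, adjusted p = 0.00701 by edgeR). Axl therefore rose together with Mertk, and Tyro3, the remaining kinase of that family, was at 0 in the wild-type libraries and at most 0.272 CPM in the knockout libraries. Lbp, which loads lipopolysaccharide onto CD14, had a log2 fold change of 1.56 (SE 0.35, adjusted p = 0.0145 by edgeR, and 0.0542 without wild-type library 1), whereas Tlr4, to which CD14 passes it, had one of -0.34 (SE 0.56, adjusted p = 0.675 by edgeR). Of the ligands named after their values were seen, Cx3cl1, the ligand of CX3CR1, had a log2 fold change of 4.74 (adjusted p = 0.0244), Ccl7, a ligand of CCR2, of 3.91 (0.0137), Ccl2 of 1.79 (0.0907) and Gas6, a bridge between MERTK and dying cells, of 3.24 (0.0538), all by edgeR. Without wild-type library 1 neither Cx3cl1 nor Ccl7 passed (adjusted p = 0.0557 and 0.0521 by edgeR), and Cx3cl1 did not pass without wild-type library 3 or knockout library 1 or 3 either, whereas Ccl2 passed without wild-type library 2 and Gas6 without wild-type library 3.

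Scavenger and lectin receptors beside the 10 genes were higher for 7 and lower for 1 of 14 tested, with a median of 2.40 (1.68 with genes near the limit of detection at their bound). Cd163, the receptor for haptoglobin-bound hemoglobin, was at 2.50, 3.85 and 5.03 CPM against 36.8, 18.4 and 22.1 CPM (log2 fold change 2.76, SE 0.41, adjusted p = 0.00296 by edgeR). Stab1, a scavenger receptor of macrophages and sinusoidal endothelium, had a log2 fold change of 2.71 (SE 0.51), and Clec4e, the lectin Mincle, of 1.56 (SE 0.21). Scarb1, a receptor for high-density lipoprotein, was the gene that fell, from 129 ± 54.3 to 55.6 ± 15.7 CPM (SD, n = 3 each; log2 fold change -1.21, SE 0.34, adjusted p = 0.0336 by edgeR), a call lost without wild-type library 1 or 3 or knockout library 1 or 2 (adjusted p = 0.0555 to 0.104). Marco, a scavenger receptor of the same class as Msr1, was at 0 in all libraries.

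Of 11 Fc and complement receptor genes tested, 5 were higher and 0 were lower, with a median of 1.31 (1.24 with bounds). The count of higher genes was 3 without wild-type library 2, knockout library 1 or knockout library 3, and 2 without wild-type library 3. Fcgr3 was at 48.0, 94.6 and 31.6 CPM against 230, 185 and 275 CPM (log2 fold change 1.99, SE 0.40, adjusted p = 0.00985 by edgeR). Fcgr2b, the inhibitory Fc receptor, had a log2 fold change of 2.16 (SE 0.33) and Fcer1g, the signaling chain that FcγRI shares with other Fc receptors, of 1.44 (SE 0.32), the last not past the threshold without wild-type library 1 or 3 (adjusted p = 0.0532 and 0.0516 by edgeR). The groups did not overlap for these Fc genes, unlike for Fcgr1. Itgam, the CD11b gene, was at 154, 90.4 and 123 CPM against 61.1, 26.0 and 102 CPM (-0.95, SE 0.46, adjusted p = 0.159 by edgeR), and passed the threshold as lower without knockout library 3 (-1.55, adjusted p = 0.0437). Among 10 chemokine receptor genes tested beside Ccr2 and Cx3cr1, 3 were higher and 0 were lower, with a median of 1.37, namely Ccr7 (log2 fold change 4.68, SE 0.48), Cxcr3 (2.57, SE 0.57) and Ccr3 (3.10, SE 0.87), which mark dendritic cells and lymphocytes, T and NK cells, and eosinophils. Cxcr3 did not pass without knockout library 1 (adjusted p = 0.0510) nor Ccr3 without wild-type library 1 or 2 or knockout library 3 (0.0711 to 0.132), all by edgeR.

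The neighbours of Ly6c2 in the Ly6 cluster on chromosome 15 moved in both directions. Of 7 tested, 3 were higher and 1 was lower, with a median of 1.11. Ly6a, which encodes the stem cell antigen Sca-1, was at 0.507, 0.472 and 0.186 CPM against 78.4, 31.1 and 20.2 CPM (log2 fold change 6.79, SE 0.71, adjusted p = 0.000891 by edgeR). Ly6e had a log2 fold change of 1.09 (SE 0.30), and Ly6k, at 0.158 CPM or less in the wild-type libraries, was at least 65.6-fold higher in the knockout libraries when set against the limit of detection of 12 counts per library. Ly6g, a marker of neutrophils, fell from 7.54 ± 6.19 to 0.833 ± 0.965 CPM (SD, n = 3 each; -3.17, SE 0.99, adjusted p = 0.0476 by edgeR). The call of Ly6g was lost without wild-type library 1 or 3 or knockout library 1 or 2 (adjusted p = 0.0751 to 0.147), and that of Ly6e without wild-type library 3 or any 1 knockout library (0.0524 to 0.0987), all by edgeR. Over 344 well-expressed genes of chromosome 15 the median log2 fold change was 0.39, beside -0.17 over 8218 such genes of all chromosomes.

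Of 14 transcription factors of monocytes and macrophages, 5 were higher and 0 were lower, with a median of 0.93. The count of higher genes was 2 without wild-type library 1 or 3 or knockout library 3 and 1, Nr4a1, without knockout library 1, and 1 gene was lower without wild-type library 3 (Id2) or knockout library 3 (Spi1). Cebpb, a factor of monocytes and activated macrophages, was at 55.3, 101 and 74.2 CPM against 211, 145 and 135 CPM (log2 fold change 1.09, SE 0.28, adjusted p = 0.0245 by edgeR), a call lost without wild-type library 1 or 3 or knockout library 1 (adjusted p = 0.0699 to 0.0800). Egr2 had a log2 fold change of 3.09 (SE 0.88), a call lost without wild-type library 1 or 2 or knockout library 1 or 3 (adjusted p = 0.0559 to 0.101 by edgeR). Nr4a1, given above, had the highest mean level of the factors that rose. Spi1, which encodes PU.1 and was named after its value was seen, had a log2 fold change of -0.56 (adjusted p = 0.116 by edgeR).

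Markers of other cell types moved with genotype as well, and their part in the changes of the 10 genes was not tested. Beside the counts of these lists, 19.4% of all genes tested were higher and 10.7% were lower. Megakaryocyte and platelet markers were higher for 9 and lower for 1 of 12 tested, with summed levels of 118 to 180 CPM in the wild-type libraries and 2382 to 3309 CPM in the knockout libraries, and Itga2b alone went from 116 ± 28.9 to 2021 ± 279 CPM (SD, n = 3 each). Mast cell and basophil markers were higher for 5 of 9 (286 to 306 against 1600 to 2152 CPM), with Cpa3 at 2.48 ± 1.38 and 770 ± 280 CPM (SD, n = 3 each). Gata2 and Kit, which are in this list, rose by 1.94 and 4.06 on the log2 scale (adjusted p = 0.000869 and 0.000550 by edgeR). Donor cells had been selected as c-Kit+. Fcer1a (-0.61, adjusted p = 0.181), Ms4a2 (-1.19, 0.238), Hdc (0.77, 0.0795) and Prss34 (0.14, 0.936) did not pass by edgeR. Kit and these genes were named after their values were seen. Of the mast cell and basophil list, Tpsb2 was at 0 in the wild-type libraries and Tpsab1 in all libraries. Erythroid markers were lower for 9 of 12 (5572 to 12614 against 399 to 863 CPM), and neutrophil markers were lower for 5 and higher for 1 of 15 (7774 to 13007 against 2135 to 5795 CPM). Within the knockout group the neutrophil and dendritic cell sums had the same order as most of the 10 genes, with the lowest value in knockout library 2 and the highest in knockout library 3. Sums of the classical monocyte, Fc and complement, scavenger and lectin, and partner and ligand lists had that order too.

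Markers of stroma, endothelium and lymphoid cells were also higher. Stroma and endothelium markers rose for 6 of 11 tested, from summed levels of 5.34 to 9.25 CPM to 205 to 232 CPM, of which Pdgfrb gave most with 154 ± 13.7 CPM (SD, n = 3), while Emcn was at 0 in the wild-type libraries and too low to be tested. T and NK cell markers rose for 13 of 15 (12.0 to 84.0 against 135 to 200 CPM), with Cd8b1, Klrb1c, Ncr1 and Tbx21 at 0 in the wild-type libraries. B cell markers rose for 7 of 9 (7.81 to 140 against 399 to 960 CPM), with Ms4a1, Vpreb3 and Rag1 at 0 in the wild-type libraries and Rag1 at 0 in the knockout libraries too. Dendritic cell markers rose for 5 of 12 (65.5 to 206 against 232 to 447 CPM), and eosinophil markers for 3 of 5 (6.65 to 8.91 against 17.9 to 31.9 CPM), with Ear1 at 0 in all libraries, Il5ra in the wild-type libraries and Prg3 in the knockout libraries. The sums of the B cell list were highest in knockout library 2, where those of the 10 genes were lowest.

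**Figure D4:**
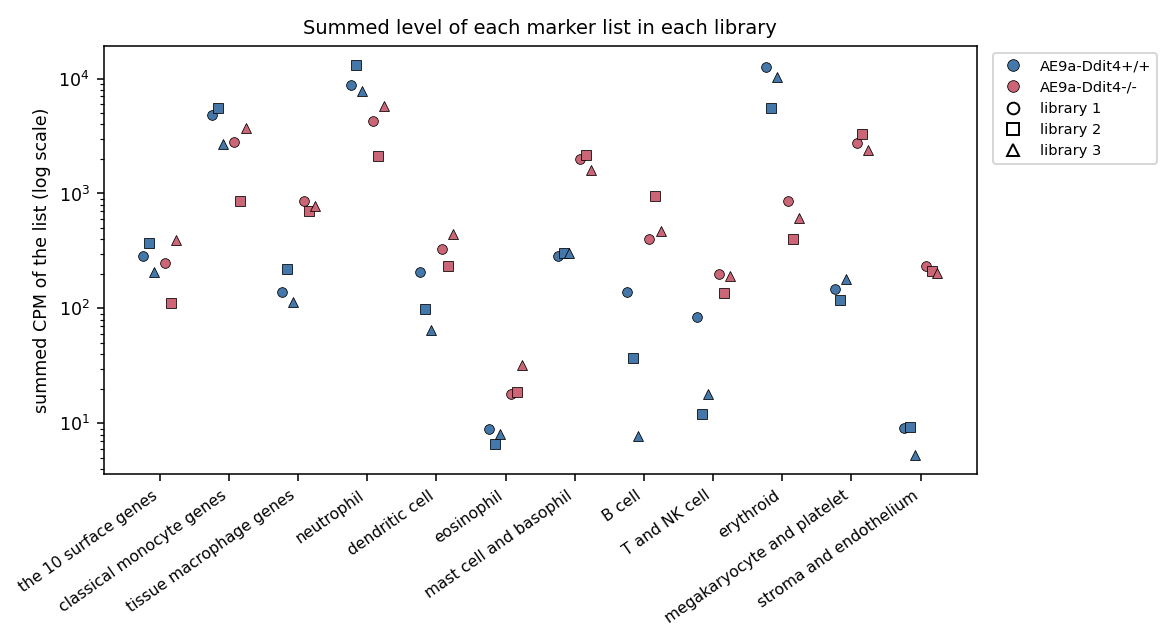
Summed CPM on a log scale of the 10 surface genes, of 2 related lists and of 9 marker lists of other cell types in each library, with AE9a-Ddit4+/+ in blue, AE9a-Ddit4-/- in red and the library number as the marker shape. The sums of the 10 surface genes overlap between the groups (208 to 369 and 112 to 396 CPM), while those of the tissue macrophage genes do not (114 to 220 and 701 to 862 CPM).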

How the data were processed

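The authors deposited 1 table of counts per gene for 6 libraries. The counting tool, aligner and use of strand are not given in the sources used here. Builds GRCm38 and mm10 stand in the submitters' processing notes. Library kits are given in 2 ways, directional and rRNA-depleted in the study's methods and mRNA in the labels. Low counts piled up at multiples of 4, so the limit of detection was set to 12 counts (0.163 to 0.198 CPM). Depth was 62141558 to 72717681 counts per library. Symbols turned into dates were restored for 27 genes, and coordinates and transcript lengths came from GENCODE M21, which held 99.7% of identifiers.

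Counts were fitted with edgeR 4.0.16 in R 4.3.3 (TMM, filterByExpr, robust quasi-likelihood F-test, genotype alone, Benjamini-Hochberg over 18375 genes), and the script was tested on simulated counts. SE was obtained from the log2 fold change and its F value. Alternatives were DESeq2 1.42.0, other scalings and filters, counts divided by 4, a replicate block, leaving out each library and a threshold of 0.01. Groups came from the sample titles. The 10 genes and all lists were chosen with earlier results of these data known. Named were the 10 genes, Ddit4, Csf1r, Ly6c1, Tlr4, Itgam, in each related list the 3 genes per direction past the threshold with the highest mean CPM, and, of marker lists, genes drawn from the 2 with the highest mean CPM and those at 0, while others are marked where named. Promoters were from RefSeq. The authors' reads were not used here.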

Additional observations from a re-analysis of the deposited data

How the results depend on the processing

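Of the 10 surface genes, 3 were higher and 0 were lower. The count of higher genes was 1, Mrc1, with a replicate block and at an adjusted p below 0.01, and it ran from 1 to 3 on leaving out 1 library at a time (1 without wild-type library 1 or 3 or without knockout library 1 or 3). The count of lower genes ran from 0 to 1, the 1 being Ly6c2 without knockout library 3. Directions turned for Cx3cr1 (log2 fold change 0.16) to -0.28 with the block and, over the fits with 1 library left out, to between -1.11 (without knockout library 3) and 0.60, with -0.16 without wild-type library 2, for Ccr2 (0.20) to -0.05 with the block and to between -0.55 (without knockout library 3) and 0.55, and for Csf1r (0.43) to between -0.20 (without knockout library 3) and 0.81. Related genes numbered 39 higher and 2 lower. They numbered 23 and 0 with the block, 20 and 0 at an adjusted p below 0.01, and 27 to 38 and 0 to 4 with 1 library left out. Over all genes, 3560 higher and 1975 lower became 2341 higher where every library had to hold 10 counts or more, 2177 and 787 with the block, 1964 and 712 at an adjusted p below 0.01, and 2683 to 3943 and 1089 to 2078 with 1 library left out. Deviations of same-numbered libraries from their group means correlated at r = -0.259, -0.304 and -0.0345, and those of other pairs at -0.103 to 0.302. With 3 libraries a group the deviations are tied to each other. They cannot decide whether same-numbered libraries were prepared together. Why the other settings moved these counts was not tested, beyond the fewer genes or samples they hold. Genes under 12 counts per library, such as Cx3cr1 in knockout library 2, cannot be told from 0.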
